A study of Sus scrofa with 13 samples.

Results

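Expression in the adult heart was compared with expression in 8 other adult organs of the pig, namely liver, spleen, lung, kidney, testis, ovary, adipose tissue and skeletal muscle (longissimus dorsi, a back muscle). These 9 libraries, of the 13 in the series, were those labelled postnatal day 240, and all came from Guizhou mini-pigs, a small Chinese breed, with no treatment, allele or strain contrast named. The remaining 4 libraries were longissimus dorsi at days 0 and 30 and mixtures of RNA from multiple tissues and from multiple muscle samples, and they were used only where named. Each organ was 1 library of total RNA depleted of ribosomal RNA and sequenced with strand information, made by a SMART or a dUTP protocol that the labels do not assign to single libraries. The labels do not give the heart chamber sampled, or the number and sex of the animals behind each organ, and the testis and ovary libraries cannot have come from 1 animal. With 1 library per organ no difference had a replicate check, so no p-value is given, and the 95% intervals below cover counting error only.

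The heart wall is built mainly of cardiomyocytes, striated muscle cells that contract without rest and are joined end to end by intercalated discs. They share with skeletal muscle fibres the sarcomere, a repeating array of myosin and actin filaments switched on by calcium through the troponin complex, but use their own forms of many of its proteins. They draw most of their energy from fatty acids burned in densely packed mitochondria. Long non-coding RNAs (lncRNAs) are long transcripts without an apparent protein product, and many are found in few tissues.

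Expression was given as RPKM, reads scaled to the length of the transcript and to the depth of the library, for 21607 genes with pig Ensembl identifiers and 10813 lncRNAs assembled in the study. Features that reached 1 RPKM in at least 1 of the 9 organs were compared, which kept 15252 Ensembl genes and 3346 lncRNAs. Of these Ensembl genes, 9481 could be paired with a symbol. Differences are on the log2(RPKM + 0.1) scale, as heart minus the highest of the 8 other organs and as heart minus their median, and a feature is called higher or lower from 2-fold on. The read numbers behind the values were recovered from the steps between them. In total, 6937621 reads were counted on features in heart, within a range over the organs of 3629806 in liver to 12394421 in testis. Reads were found on 13928 Ensembl genes and 2200 lncRNAs in heart. The lung library held the hepatocyte markers at a summed 438 RPKM, against 7423 in liver, 33.5 in kidney and at most 1.72 in the other 6 organs, heart included. Without lung as a comparator, the numbers of genes above every other organ moved by less than 1.5 times.

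The heart label was first set against markers of cardiomyocytes. Of 21 such markers, 13 had an identifier, and MYH7, MYL2, TNNI3, NPPA, PLN, CASQ2, NKX2-5 and HAND2 could not be paired with one. The 13 summed to 12142 RPKM in heart, 1354 RPKM in muscle and 2.61 to 34.2 RPKM in the other 7 organs. All 13 had reads in heart, and 12 were compared. Of these, 9 were called higher in heart than in every other organ and all 12 higher than the median organ. Over all compared genes with a symbol these shares were 0.949% and 9.89%. The median heart minus median was 7.94, against -0.36 over all Ensembl genes compared. NPPB, the B-type natriuretic peptide hormone, was just under the limit for comparison, with 12 reads in heart (0.996 RPKM) and none in the 8 other organs. All 6 lung epithelium markers and all 4 neural markers had 0 reads in heart, and the hepatocyte markers summed to 1.31 RPKM. These low values do not single out heart, since the 6 were also at 0 in muscle and the 4 at 0 in spleen. The label of the library matched the cardiomyocyte markers. As each organ is a bulk sample, more cells of a type and more RNA per cell cannot be told apart.

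In total, 173 Ensembl genes (1.13% of those compared) were at least 2-fold higher in heart than in every other organ, and 90 of them had a symbol (0.949% of compared genes with a symbol). Of the 173, 78 differed by 4-fold or more, 18 by 16-fold or more, and 170 rested on at least 20 heart reads. Their levels in heart ran from 1.07 to 8019 RPKM with a median of 9.47 RPKM. Skeletal muscle was the next highest organ for 52 of them, ovary for 31, testis for 26, kidney for 24, lung for 18, adipose tissue for 10, spleen for 6 and liver for 4. Together the 173 genes took 28.0% of the reads counted in heart, 3.0% in muscle and 0.243% to 0.707% in the other 7 organs. Of them 72 reached 1 RPKM in muscle (41.6%), against 5548 of all 15252 genes (36.4%). The edge of the call was not a gap, since 10 genes had a difference from 1 to 1.1 and 11 from 0.9 to 1. By the same measure, on values as deposited, heart had fewer such genes than every organ but adipose tissue, which had 112. The heart number was 276 when values were scaled by the median of ratios, where the other organs were not counted, so this order may depend on scaling. As deposited, the others had 203 (muscle), 305 (spleen), 342 (lung), 350 (liver), 463 (kidney), 2014 (ovary) and 2576 (testis).

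**Figure D1:**
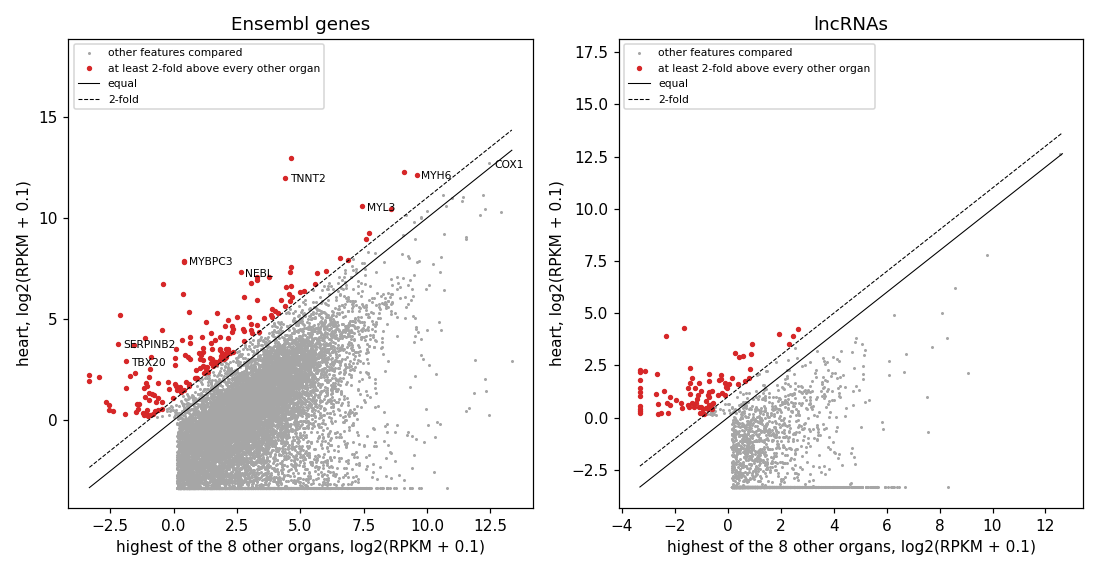
Each dot is an Ensembl gene (left) or a lncRNA (right), with log2(RPKM + 0.1) in heart on the y axis and in the highest of the 8 other organs on the x axis. The 173 genes and 85 lncRNAs at least 2-fold above every other organ are red and lie above the dashed line; TNNT2 and MYBPC3 stand far above it, while COX1 lies close to the solid line of equal levels.

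Among genes with a symbol, the 3 with the largest differences, TNNT2, MYBPC3 and ACTC1, encode proteins of the contractile apparatus. TNNT2, cardiac troponin T, which anchors the troponin complex to the thin filament, had 4075 RPKM in heart. In the other organs it had 21.2 RPKM in testis, 6.07 in muscle, 0.260 in ovary, 0.244 in lung, 0.179 in adipose tissue, 0.0731 in liver, 0.0619 in kidney and 0 in spleen. Heart was thus far outside the range of the others, and the ratio to testis was 192 (95% interval 179 to 207). MYBPC3, cardiac myosin-binding protein C, a thick filament protein that tunes the speed of contraction, had 236 RPKM in heart and 1.23 in testis, 1.13 in ovary, 0.405 in muscle and 0.00780 to 0.150 in the other 5 organs. ACTC1, the cardiac form of sarcomeric actin, had 229 RPKM in heart, 1.23 in kidney, 0.939 in muscle, 0.842 in spleen and 0 to 0.245 in the other 5. Both were thus more than 100-fold above their next organ, at ratios of 191 (166 to 221) and 185 (145 to 241). ANKRD1, a stretch-responsive ankyrin repeat protein of the sarcomere, had 76.5 RPKM in heart, 1.18 in muscle and at most 0.273 in the other 7 organs.

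The list of cardiac sarcomere genes held 26 symbols, of which 18 had an identifier and all 18 were compared. Of these, 11 were called higher in heart than in every other organ and 18 higher than the median organ (0.949% and 9.89% of the compared genes with a symbol). The median of heart minus median was 9.07. The 11 were TNNT2, MYBPC3, ACTC1, ANKRD1, NEBL, MYL3, TCAP, MYH6, MYL4, TNNC1 and CSRP3. Muscle was the highest other organ for each of the remaining 7. All 18 were at least 2-fold above the 7 organs other than muscle, against 322 of all 15252 genes (2.11%).

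Some of these genes were shared with muscle at lower levels there. MYH6, the alpha myosin heavy chain that forms the motor of the thick filament, had the most reads of any feature in heart, 980221 or 14.1% of all counted, at 4521 RPKM. It had 768 RPKM in muscle and at most 0.681 RPKM in the other 7 organs. The ratio of heart to muscle was 5.88 (5.85 to 5.91). MYL3, the ventricular and slow-muscle essential light chain, had 1521 RPKM in heart, 175 in muscle, 4.43 in testis, 1.85 in adipose tissue and at most 0.256 in the other 5. TNNC1, the calcium-binding troponin C of heart and slow muscle, had 1408 RPKM in heart, 383 in muscle and at most 0.433 elsewhere. TCAP, telethonin, which caps titin at the sarcomere border, had 192 RPKM in heart, 25.01 in muscle and at most 0.443 elsewhere. These genes were high in both striated muscles and had at most 4.43 RPKM in the other 7 organs. Reads of myosin and actin family members may have been split between near-identical copies, and no identifier could be paired with MYH7, the close neighbour of MYH6, so the levels of MYH6 and ACTC1 are uncertain to that extent.

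The remaining sarcomere genes differed less from muscle. ACTN2, the alpha-actinin of the sarcomere border, had 137 RPKM in heart and 129 in muscle. MYOM1, a myomesin that links thick filaments, had 89.8 and 101 RPKM, and LMOD2, a leiomodin that sets thin filament length, had 146 and 185 RPKM. TPM1, tropomyosin, had 1392 RPKM in heart and 4947 in muscle. NEBL, nebulette, a thin filament protein, differed in the opposite way, with 159 RPKM in heart and 0.799 in muscle, and ovary (6.18 RPKM) and lung (5.97) were its next organs. MYL4, the atrial essential light chain, had only 2.42 RPKM in heart (53 reads), with 0.406 RPKM in kidney and 0 in the other 7 organs. It was thus far below MYL3 in the same library, on a scale per length.

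**Figure D2:**
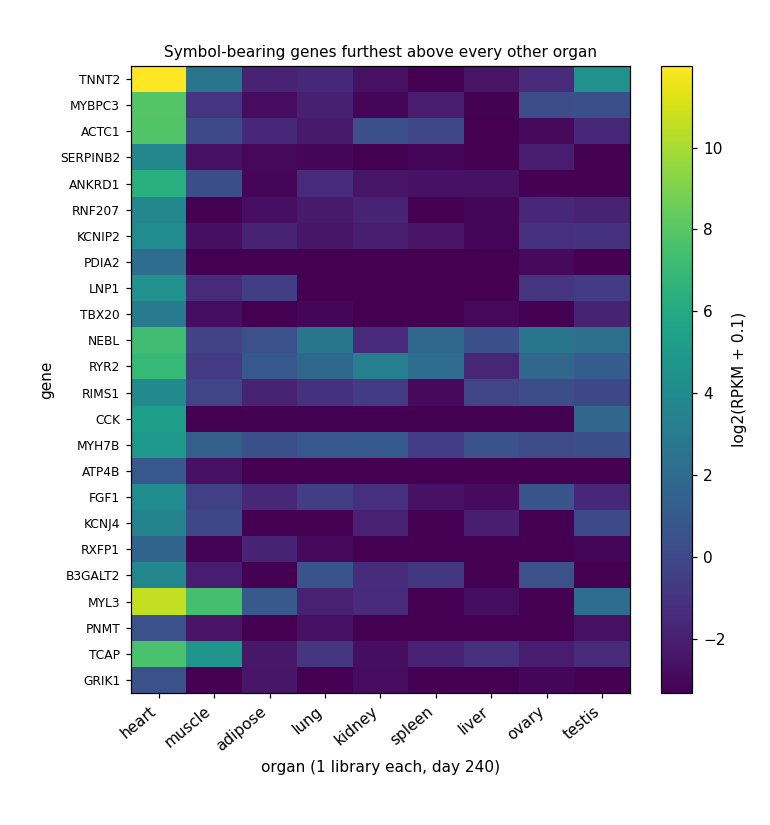
Levels, as log2(RPKM + 0.1), of 24 of the 25 genes with a symbol and at least 20 heart reads that were furthest above every other organ (rows, largest difference at the top) in the 9 organs (columns, 1 library each). Heart is the brightest column in each row; muscle is the only other bright organ for MYL3 and TCAP, and RYR2 and NEBL show low levels in most organs.

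The relation of heart to muscle was followed through pairs of related genes, which were picked from the lists after their values were seen. Skeletal muscle contraction was represented by 30 symbols, of which 18 genes were compared. None was higher in heart than in every other organ, and 11 were higher than the median organ (0.949% and 9.89% of the compared genes with a symbol). All 18 were at least 2-fold lower in heart than in muscle (9.48% of all Ensembl genes compared), with a median heart minus muscle of -7.84. Together they had 1188 RPKM in heart and 27664 RPKM in muscle. Troponin T, troponin C, the essential light chain and myosin-binding protein C each had a form high in heart and another form high in muscle. TNNC2, the fast troponin C, had 7.47 RPKM in heart and 10378 in muscle, MYL1 had 7.81 and 3798 RPKM, and MYBPC1 had 0.187 and 191 RPKM. NEB, the giant nebulin, had 8.03 RPKM in heart and 911 in muscle, the reverse of nebulette. ACTA1, the skeletal actin, was less separated, with 538 RPKM in heart and 2998 in muscle.

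Some enzymes of fuel use, again picked after their values were seen, differed in this way and others did not. PYGB and PYGM are forms of glycogen phosphorylase, which releases glucose from glycogen. PYGB had 34.7 RPKM in heart and 0.263 in muscle, a ratio of 132 (85.2 to 216), whereas PYGM had 35.3 RPKM in heart and 689 in muscle. HK1, the hexokinase of many tissues, had 23.7 RPKM in heart and 0.90 in muscle, but 48.5 in testis, and HK2 had 0.669 RPKM in heart. LDHA, the lactate dehydrogenase subunit that favours lactate formation, had 4.86 RPKM in heart and 1301 in muscle, a ratio of muscle to heart of 268 (239 to 302). CPT1B, which admits fatty acids to the mitochondria of muscle, had 34.6 RPKM in heart and 7.83 in muscle, and its liver-type relative CPT1A had 0.108 and 0.153 RPKM. The enolases ENO3 and ENO1 were both lower in heart, at 273 and 1.96 RPKM against 1499 and 3.32 in muscle. The ADP/ATP carriers SLC25A4 and SLC25A5 were both higher in heart, at 217 and 1.5 RPKM against 172 and 0.244 in muscle.

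**Figure D3:**
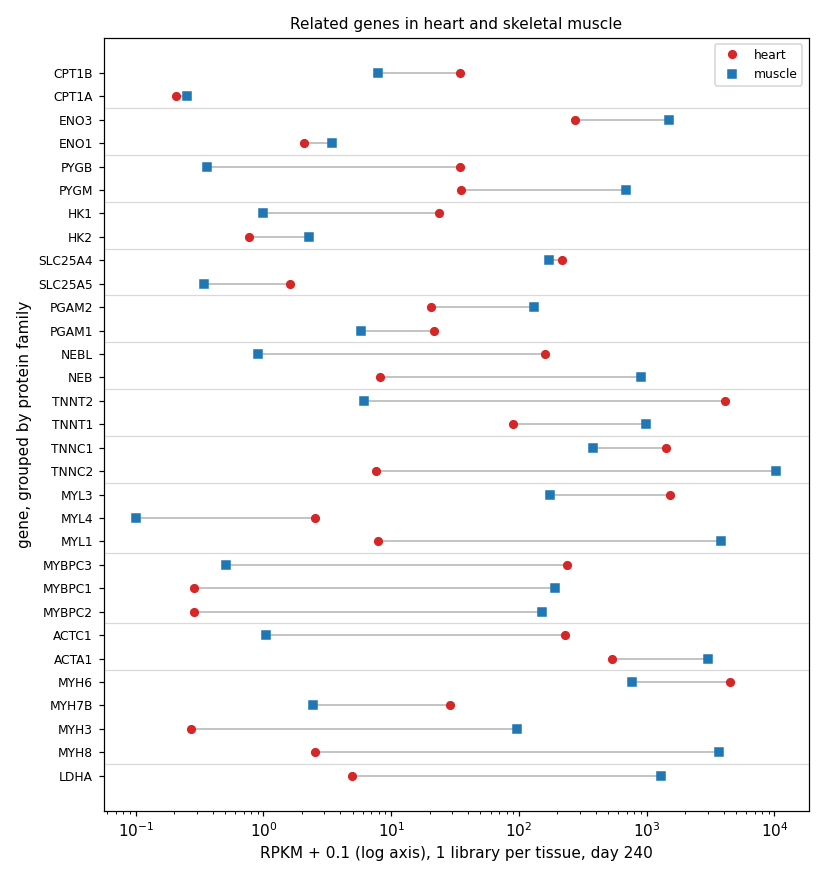
RPKM + 0.1 (log axis) of related genes in heart (red circles) and in skeletal muscle (blue squares) of day 240, 1 library each, with grey lines joining the 2 values of a gene and rules separating protein families. TNNT2, NEBL, MYBPC3, ACTC1 and PYGB lie to the right in heart; TNNC2, MYL1, MYH8, NEB and LDHA lie to the right in muscle.

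Calcium released from internal stores switches on each contraction of a cardiomyocyte. Of 20 symbols for calcium cycling, 12 were compared, 4 were higher in heart than in every other organ and 10 higher than the median organ (0.949% and 9.89% of the compared genes with a symbol), and the median of heart minus median was 3.97. RYR2, the cardiac calcium release channel, had 121 RPKM in heart. It had 9.71 RPKM in kidney, 4.28 in spleen, 3.51 in lung, 3.26 in ovary, 2.06 in testis, 1.74 in adipose tissue, 0.519 in muscle and 0.212 in liver. All 8 were well below heart, at a ratio to kidney of 12.5 (12.1 to 12.8), and muscle was among the lowest. CAMK2D, the main calmodulin kinase of heart, had 95.1 RPKM with 21.4 in ovary next, PDE3A, a phosphodiesterase that breaks down cyclic AMP, had 11.9 RPKM with 2.16 in adipose tissue next, and CACNB2, a calcium channel subunit, had 3.47 RPKM with 0.551 in testis next. HRC and SRL, calcium-binding proteins of the store, were shared with muscle, at 173 and 21.3 RPKM in heart and 108 and 15.6 RPKM in muscle. SLN, sarcolipin, an inhibitor of the calcium pump, went the other way, with 0.319 RPKM in heart and 253 in muscle.

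Of 25 symbols for ion channels and conduction, 13 were compared, 3 were higher than in every other organ and 8 higher than the median organ, against the same shares of 0.949% and 9.89%. KCNIP2, a subunit that regulates the transient outward potassium current, had 16.6 RPKM in heart, 0.359 in testis, 0.319 in ovary and 0.0150 to 0.183 in the other 6. KCNJ5, a potassium channel opened by acetylcholine signalling, had 6.59 RPKM in heart and 0.938 in kidney. KCNJ4, an inward rectifier potassium channel, had 11.6 RPKM in heart, 0.964 in testis and 0.889 in muscle. These 3 channel genes were all highest in heart, with no other organ reaching 1 RPKM. GJA1, connexin 43, which couples cardiomyocytes electrically, had 25.6 RPKM in heart but 60.6 in ovary. KCND2 and KCND3 were listed at 0 in heart.

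Cells of the heart are joined by desmosomes, which hold the intercalated disc together. Of 24 genes compared for the intercalated disc and costamere, 3 were higher than in every other organ and 13 higher than the median organ (background 0.949% and 9.89%). PKP2, plakophilin, had 25.1 RPKM in heart with 4.88 in liver next, DSP, desmoplakin, had 22.5 RPKM with 5.01 in lung next, and POPDC2, a membrane protein of striated muscle, had 8.10 RPKM with 1.97 in muscle next. In muscle PKP2 and DSP had 0.120 and 0.0396 RPKM. CDH2, the cadherin of the disc, had 41.4 RPKM in heart and 22.7 in spleen, a difference of less than 2-fold. DES and DMD, desmin and dystrophin, had 298 and 41.9 RPKM in heart and were higher in muscle, at 515 and 76.1 RPKM.

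Transcription factors of the heart had lower levels. Of 22 compared, 2 were higher than in every other organ and 15 higher than the median organ (background 0.949% and 9.89%), and the median of heart minus median was 1.36. With a pseudocount of 1, 9 were higher than the median organ. TBX20, a T-box factor of heart development, had 7.47 RPKM in heart (363 reads), 0.173 in testis, 0.0454 in muscle, 0.0240 in liver, 0.0200 in lung and 0 in kidney, spleen, ovary and adipose tissue. IRX3, a homeobox factor, had 4.17 RPKM with 1.79 in kidney next. TBX5 had 5.19 RPKM in heart and 6.63 in lung, and GATA4 had 3.36 RPKM in heart, 5.13 in ovary and 3.98 in testis. TBX5 and GATA4 thus did not separate heart from every organ, whereas TBX20 did. ISL1, a factor of cardiac progenitors and pacemaker cells, was at 0 in heart, where 0 reads allow up to 3 reads.

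Of 6 secreted factors compared, 1 was above every other organ (0.949% of the compared genes with a symbol). This was CORIN, the protease that activates natriuretic peptides, with 11.3 RPKM in heart and 4.37 in ovary next. Of 13 receptors and signalling genes compared, 3 were above every other organ. RXFP1, the relaxin receptor, had 2.90 RPKM in heart and 0.175 in adipose tissue next. ADCY6, an adenylyl cyclase, had 9.93 RPKM with 3.61 in kidney next, and EDNRA, an endothelin receptor, had 5.38 RPKM with 2.41 in ovary next. FGF1, a growth factor, was also called, with 17.1 RPKM in heart and 1.45 in ovary next.

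Some genes far above every other organ are better known from other tissues. CCK, cholecystokinin, a hormone of gut and brain, had 38.8 RPKM in heart (944 reads), 3.18 in testis and 0 in the other 7 organs. SERPINB2, an inhibitor of plasminogen activators, had 13.8 RPKM in heart and at most 0.121 elsewhere, a ratio to ovary of 114 (48.6 to 352). RIMS1, a protein of synaptic vesicle release, had 15.3 RPKM in heart and 1.15 in ovary next, and GRIK1, a glutamate receptor, had 1.3 RPKM and at most 0.0886 elsewhere. PNMT, which makes adrenaline, had 1.3 RPKM in heart (40 reads) and 0.0719 in muscle next, where it rested on 2 reads (ratio 18.1, 4.71 to 155). ATP4B, a subunit of the gastric proton pump, had 1.76 RPKM (66 reads) and PDIA2, a pancreatic disulfide isomerase, 4.35 RPKM (250 reads). PDIA2 had 1 recovered read in the next organ, so its ratio of 151 has an interval of 26.8 to 5975. PDIA2 and ATP4B had reads in only 3 of the 13 libraries. Their recovered lengths are therefore less well determined, and their read numbers are lower bounds. RNF207, a RING finger protein, LNP1 and B3GALT2, a galactosyltransferase, had 13.2, 21.7 and 14.1 RPKM in heart and at most 0.242, 0.624 and 1.45 RPKM elsewhere, and MYH7B, a myosin heavy chain, had 28.7 RPKM with 2.34 in muscle next. Neither stomach, pancreas, gut nor brain was among the 9 organs.

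The highest feature of the heart library had no symbol. ENSSSCG00000024505 had 8019 RPKM in heart (238023 reads). In the other organs it had 24.9 RPKM in testis, 11.8 in lung, 11.3 in muscle, 4.58 in ovary, 4.07 in kidney, 0.931 in adipose tissue, 0.511 in liver and 0.167 in spleen. Its ratio to testis was 321 (300 to 345), and with 8.32 it had the largest heart minus maximum of the genes named here. ENSSSCG00000009830 had 4993 RPKM in heart, 538 in muscle and at most 0.687 elsewhere. Among those without a symbol, ENSSSCG00000016752 had 106 RPKM in heart and 0.643 in muscle next, and ENSSSCG00000003430 had 36.2 RPKM and 0.133 in muscle (2 reads). Of the compared genes, which need 1 RPKM in some organ and can pass through heart alone, ENSSSCG00000002553 and ENSSSCG00000017070 had no read in the other 8 organs. They had 99 and 170 heart reads, lower bounds because they had reads in only 3 and 2 of the 13 libraries. The first was at least 19.9-fold and the other at least 34.2-fold above 3 reads in the organ of the highest such floor.

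Mitochondrial transcripts were abundant in heart but not particular to it. The 13 mRNAs encoded by the mitochondrial genome summed to 23962 RPKM in heart, 18812 in ovary, 18626 in kidney, 17262 in muscle, 8241 in testis, 7490 in adipose tissue, 2211 in lung, 1835 in liver and 1585 in spleen. Of all reads counted, 13.0% fell on them in heart and 10.9% in kidney. None was 2-fold above every other organ, 12 were higher than the median organ, and 8 were highest in heart of the 9 organs. Over all Ensembl genes compared these shares were 1.13%, 10.7% and 3.47%. COX1, a core subunit of cytochrome c oxidase, had 6615 RPKM in heart and 5606 in ovary, and this order, like that of CYTB, turned when values were scaled by the median of ratios. ATP8, an ATP synthase subunit, was the most separated, with 1132 RPKM in heart and 572 in kidney, but it overlaps ATP6 and may share reads with it.

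Among nuclear genes of oxidative phosphorylation, 33 were compared, and 29 were higher in heart than in the median organ, with a median of 1.90, and 4 were above every other organ. Over all compared genes with a symbol these shares were 9.89% and 0.949%, which also stand as background for the lists below. UQCRC1, a core protein of complex III, had 156 RPKM in heart with 50.4 in ovary next, NDUFS6, of complex I, had 49.6 RPKM with 21.0 in kidney next, NDUFB7, of complex I, had 59.5 RPKM with 23.8 in testis next, and UQCR11, of complex III, had 84.9 RPKM with 35.0 in muscle next. Of 23 genes of the citric acid cycle 13, and of 21 genes of fatty acid oxidation 7, were higher than the median organ, at medians of 1.17 and 0.86. These numbers were 20 and 13 when values were scaled by the median of ratios. They were 10 and 9 with all libraries scaled to the same total, and 12 and 5 with a pseudocount of 1. In fatty acid oxidation only CPT1B was called above every other organ. Of 10 genes of energy transfer, 7 were higher than the median organ and none above every other. CKMT2, mitochondrial creatine kinase, had 58.9 RPKM in heart, 58.1 in muscle and at most 0.840 elsewhere, and OXCT1, which admits ketone bodies to oxidation, had 56.6 RPKM in heart, 48.6 in adipose tissue and 37.2 in kidney.

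Of 22 genes of glucose use, 12 were higher than the median organ (9.89% of the compared genes with a symbol). At least 2-fold lower than in muscle were 14 of them, against 9.48% of all Ensembl genes compared. GAPDH had 1134 RPKM in heart and 4325 in muscle. SLC2A4, the glucose transporter of muscle and fat, was listed at 0 in heart and adipose tissue and at 0.0444 RPKM in muscle, and ACADVL, of fatty acid oxidation, had 0.321 RPKM in heart and 0 in liver. A value at 0 therefore describes the gene model as counted, and what led to these values was not tested.

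**Figure D4:**
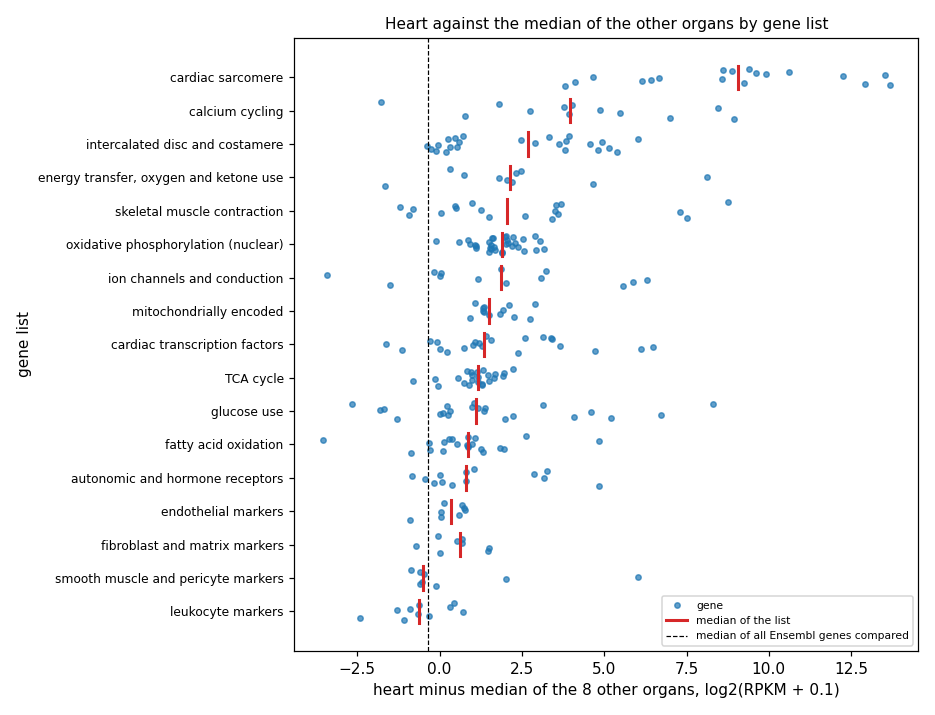
Heart minus the median of the 8 other organs on the log2(RPKM + 0.1) scale for the compared genes of 17 lists (blue points), with each list's median (red bar) and the median of all Ensembl genes compared, -0.36 (dashed line). The cardiac sarcomere list lies furthest to the right, with a median of 9.07, and markers of leukocytes scatter on both sides of the dashed line, with a median of -0.63.

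Markers of the other cell types in the heart were set against the share of compared genes with a symbol that were higher than the median organ, 9.89%. None of 8 endothelial markers and none of 10 leukocyte markers was higher in heart than the median organ, with medians of 0.36 and -0.63, the endothelial median turning to -0.20 when values were scaled to the same total. Of 8 fibroblast and matrix markers, 2 were higher, LUM (8.68 RPKM) and PI16 (2.44 RPKM). The fibroblast list summed to 93.3 RPKM in heart, against 1187 in adipose tissue and 1181 in ovary. Of 8 smooth muscle and pericyte markers, DES and KCNJ8 were higher, and DES is also a gene of cardiomyocytes. ACTA2 and MYH11, which define smooth muscle, had 7.14 and 8.12 RPKM in heart and 73.6 and 66.0 in lung. Of 4 erythroid markers, 2 were higher than the median organ and none was above every other organ. They summed to 38.3 RPKM in heart, most of it HBB, beta globin of red cells (36.3 RPKM), against 59.2 in spleen and 28.7 in lung. Leukocyte markers summed to 3.96 RPKM in heart, with MS4A1, CD79B and NKG7 among those at 0, against 119 in spleen and a range of 1.12 (muscle) to 56.7 (lung) in the others. The part of cell composition in the differences was not tested.

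At the median organ more genes were lower than higher in heart, 3876 (25.4%) against 1637 (10.7%), so that 29.7% of these calls were higher. Among genes with a symbol 2376 (25.1%) were lower and 938 (9.89%) higher. This split depended on scaling. The median of heart minus median over all genes was -0.36 as deposited, -0.63 with all libraries scaled to the same total and -0.03 when scaled by the median of ratios. The share of higher calls was then 19.9% (1336 against 5372) and 49.4% (2428 against 2489). Of the 173 genes above every other organ, 134 stayed called with the same total and 147 with the median of ratios, where 157 and 276 genes were called. Without the muscle library 322 genes were called above every other organ, so that muscle alone held back 149, and 44 of those were more than 2-fold lower in heart than in muscle.

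In total, 129 Ensembl genes (0.846%) were at least 2-fold lower in heart than in every other organ, 53 of them at 0 in heart, and 56 had a symbol (0.591%). These were fewer than the 173 higher ones, but this order depended on the settings. Lower against higher counts were 371 against 177 with a pseudocount of 0.01. They were 196 against 157 when scaled to the same total and 426 against 322 without muscle. The order stayed with a pseudocount of 1 (6 against 133) and with the median of ratios (189 against 276). Muscle was the next lowest organ for 42 of the 129 and liver for 35. ALDH2, the mitochondrial enzyme that clears acetaldehyde, had 0.675 RPKM in heart (50 reads). It had 66.3 RPKM in liver, 36.1 in ovary, 22.2 in kidney, 18.9 in muscle, 13.1 in lung, 4.75 in adipose tissue, 4.39 in spleen and 3.54 in testis. The lowest of the others was thus above heart by 2.23 on the log2 scale. BLVRB, a biliverdin reductase, had 0.267 RPKM in heart (6 reads) and 2.21 (muscle) to 34.3 (spleen) elsewhere, with a median of 6.91 RPKM. CCL19, a chemokine of lymphoid tissue, and DOCK2, a protein of leukocyte migration, had 0 reads in heart and 0.669 to 6.41 and 0.427 to 13.6 RPKM elsewhere. G0S2, an inhibitor of fat breakdown, had 0 reads in heart and 0.231 to 1.79 RPKM elsewhere. BEX4 and SLC35G1 also had 0 reads, against at least 0.358 and 0.303 RPKM elsewhere. SGF29, a chromatin reader, SSX2IP and SSR4, a part of the protein translocation machinery, had 0.278, 0.368 and 0.290 RPKM in heart and at least 1.27, 1.42 and 1.04 RPKM elsewhere. The genes at 0 in the heart thus had low levels in some other organ too.

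Across the 15252 Ensembl genes, the Spearman correlation of heart was 0.808 with muscle, 0.764 with adipose tissue, 0.701 with ovary, 0.677 with spleen, 0.670 with lung, 0.661 with kidney, 0.604 with liver and 0.452 with testis. Genes are not independent replicates and the libraries differ in depth, so these are descriptions. Muscle was closest and testis furthest.

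In total, 85 lncRNAs (2.54% of the 3346 compared) were at least 2-fold higher in heart than in every other organ. Of these, 49 differed by 4-fold or more, 10 by 16-fold or more, and 10 had no read in any other organ. Those last 10 (0.299% of the lncRNAs compared) reached 1 RPKM in heart alone, so their call followed from the filter. Their levels were low, with a median of 2.20 RPKM, a range of 1.01 to 19.3 RPKM, and a median of 50 heart reads, and 70 of them had at least 20 reads. Together they took 0.149% of counted heart reads. Lung and adipose tissue were next highest for 13 each, testis and ovary for 12 each, muscle for 7, and liver, spleen and kidney for 6 each. The other organs had 38 (muscle), 40 (adipose tissue), 64 (spleen), 65 (liver), 95 (lung), 171 (kidney), 280 (ovary) and 1626 (testis) such lncRNAs. Of the 85, 4 reached 1 RPKM in muscle (4.71%), against 160 of the 3346 lncRNAs compared (4.78%), which is close to that background. Without muscle 99 lncRNAs were called. The nearest lncRNAs inside and outside the limit had differences of 1.04 and 0.97.

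TCONS_00051495 was the highest of the 85, with 19.3 RPKM and 1235 reads in heart. It had 0.214 RPKM in lung, 0.0299 in adipose tissue, 0.0155 in kidney and 0 in liver, spleen, testis, ovary and muscle. Its ratio to lung was 90.6 (53.8 to 166). TCONS_00082994 had 14.8 RPKM in heart from 175 reads and a single read in liver, and TCONS_00051715 had 4.61 RPKM from 335 reads and a single read in adipose tissue. With 1 read in the next organ, their ratios of 150 and 352 have intervals of 26.6 to 5955 and 62.7 to 13927. TCONS_00564852 had 4.21 RPKM (145 reads) and at most 0.0575 RPKM elsewhere, and TCONS_00581583 had 2.12 RPKM (157 reads) and at most 0.0533 RPKM elsewhere. These lncRNAs had few reads outside heart at this depth.

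A further group had no read in the other 8 organs. TCONS_00494470 had 180 heart reads (4.38 RPKM) and was at least 36.2-fold above 3 reads in the organ of the highest such floor. TCONS_00304769, TCONS_00051480, TCONS_00228069 and TCONS_00331453 had 47, 45, 41 and 31 heart reads, and were at least 9.44-, 9.04-, 8.24- and 6.23-fold higher than that floor. Because the recovered length of features with reads in only 1 to 3 libraries is less well determined, those read numbers are lower bounds. Among the 85, 16 had reads in only 1 to 3 of the 13 libraries (18.8%), against 1240 of the 3346 compared (37.1%). By identifier, TCONS_00051480 and TCONS_00051495, and TCONS_00717503 and TCONS_00717504, lay within 20 numbers of each other, and the other 81 did not lie that close to another of the 85. No position was read from the values, so neighbourhood in the genome was not examined.

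**Figure D5:**
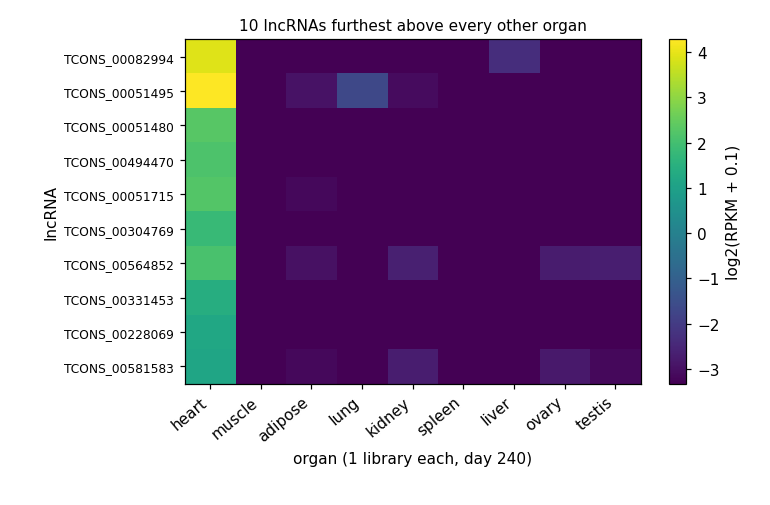
Levels, as log2(RPKM + 0.1), of the 10 lncRNAs with at least 20 heart reads that were furthest above every other organ (rows) in the 9 organs (columns, 1 library each). Heart is bright in each row, from 2.12 to 19.3 RPKM, and the others are at or near the colour of 0, with the highest value outside heart, 0.214 RPKM, in lung.

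The most abundant lncRNA of heart was not among the 85. TCONS_00512109 had 6380 RPKM in heart, 6038 in muscle, 5375 in kidney, 3057 in ovary, 2217 in adipose tissue, 1912 in lung, 1852 in testis, 1173 in spleen and 278 in liver. It was thus abundant in the library of every organ. Heart and muscle differed by only 0.08 on the log2 scale, an order that turned under both other scalings. In the mixtures of tissues and of muscle RNA it had only 3.29 and 47.1 RPKM, and what led to these low values was not tested.

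At the median organ 383 lncRNAs (11.4%) were higher and 436 (13.0%) lower in heart, so that 46.8% of calls were higher, and 58.6% (468 against 331) when scaled by the median of ratios. The number lower than in every other organ was 19 (0.568%), of which 12 had no heart read. TCONS_00141913 had 0.213 RPKM in heart from 2 reads and 1.26 (spleen) to 25.2 (kidney) elsewhere. TCONS_00794848, TCONS_00081929 and TCONS_00327622 had no heart read and 0.429 to 4.49, 0.388 to 4.28 and 0.216 to 3.09 RPKM elsewhere, and TCONS_00740669 had 0.0600 RPKM in heart (2 reads) and at least 0.564 elsewhere. The floor of 3 reads in heart was between 0.0900 and 0.390 RPKM for these 5. For TCONS_00794848, TCONS_00081929 and TCONS_00327622 it was 0.390, 0.234 and 0.294 RPKM, near or above their lowest values elsewhere. For TCONS_00141913 and TCONS_00740669 it was 0.319 and 0.0900 RPKM, well below their lowest values elsewhere. Over the 3346 lncRNAs, the Spearman correlation of heart was 0.582 with muscle, 0.551 with spleen, 0.528 with lung, 0.504 with adipose tissue, 0.467 with kidney, 0.462 with liver, 0.450 with ovary and -0.15 with testis.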

How the data were processed

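Total RNA was sequenced after depletion of ribosomal RNA. According to the paper's methods and the submitters' processing notes, the authors mapped reads with TopHat 1.3.2, assembled lncRNAs with Cufflinks, counted reads per feature and deposited RPKM values, with 1 value per feature and library. The genome build and the reads taken as the depth of a library are not given in the sources used here. Summed RPKM differed between organs, from 61672 in spleen to 214285 in ovary (heart 120677), which moves differences between organs when values are rescaled. Symbols were paired with Ensembl identifiers through a table of gene names, for 11654 of 21607 identifiers.

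From the deposited RPKM, whole reads were recovered as the smallest totals and lengths that give whole numbers, tested on simulated data. Intervals are exact Poisson for levels and exact conditional for ratios, at 95%. Heart was compared with the maximum, median and minimum of the other organs on log2(RPKM + 0.1), without a test. Lists held 473 symbols in 24 lists, beside the 21 cardiomyocyte markers, and are described by counts and medians. Genes named in the text were the 25 with a symbol furthest above every other organ with at least 20 reads, the 10 furthest below, the 10 and 5 lncRNAs by the same rules, the 10 features highest in heart, and members of the lists; the 5 genes without a symbol that had the largest difference and the related pairs were added after values were seen. The comparison and lists were chosen with earlier results of these data known. Alternatives were another pseudocount, filter, fold limit or scaling, and leaving out organs. Sequences were not analysed here, and a few members of the lists are not reported here by name. Python 3.11.15, numpy 2.4.6, pandas 2.3.3 and scipy 1.17.1 were used.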

Additional observations from a re-analysis of the deposited data

How the results depend on the processing

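No paired analysis was possible because each organ has 1 library. Counts are given in the order higher than every other organ, lower than every other organ, higher than the median organ and lower than the median organ; those not named moved by less than 1.5 times, and the cause was not tested. For Ensembl genes, a pseudocount of 1 gave 6 lower than every, 946 higher than the median and 993 lower than the median; 0.01 gave 371 lower than every. At least 5 RPKM gave 70, 1074 and 2410 for the last 3 counts, and a 4-fold limit gave 78, 13, 717 and 1084. Scaling to the same total gave 196 lower than every, and the median of ratios 276 higher than every and 2489 lower than the median. Leaving out 1 organ gave 179 to 322, 128 to 426, 1473 to 1928 and 3117 to 4759; without muscle the first 2 counts were 322 and 426, and without liver 233 genes were lower than every. Leaving out both testis and ovary, chosen after seeing the data, gave 322 higher than every.

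For lncRNAs, a pseudocount of 1 gave 53, 0, 164 and 37, and 0.01 gave 45 lower than every and 804 lower than the median. No filter gave 161 higher than every, 769 higher and 670 lower than the median; at least 5 RPKM gave 12, 11, 69 and 100; a 4-fold limit 49, 4, 209 and 121. The median of ratios gave 132 higher than every, and at least 20 reads 202 higher than the median. Leaving out 1 organ gave 86 to 99, 18 to 41, 322 to 389 and 358 to 558, with 41 (without muscle) and 29 (without liver) lower than every; without testis and ovary 274 were lower than the median. Pseudocount 1 also changed the share of higher calls at the median organ to 48.8% for genes and 81.6% for lncRNAs.

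Of single features, heart minus maximum turned to -0.0762 for COX1, -0.0119 for CYTB and -0.58 for TCONS_00512109 with the median of ratios, and to -0.0018 for TCONS_00512109 and 0.0448 for COX3 with the same total. No other of the 44 features named by this difference changed its direction. Of the 85 lncRNAs, 15 had fewer than 20 heart reads.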

Other observations

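ACTC1 had 84.9 RPKM at day 0, 7.23 at day 30 and 0.939 at day 240 in muscle, against 229 RPKM in adult heart. ANKRD1 had 21.9, 4.66 and 1.18 RPKM at these ages, against 76.5 in heart, and CSRP3, a muscle LIM protein, had 327, 11.4 and 94.8 RPKM, against 263 in heart. TNNT2 had 4.03 to 6.07 RPKM at the 3 ages and MYBPC3 at most 0.405 RPKM. These genes were picked after their values were seen, with 1 library per age. Of the 173 genes above every other adult organ, 74 (42.8%), 74 (42.8%) and 72 (41.6%) reached 1 RPKM in muscle at days 0, 30 and 240, against 45.8%, 35.1% and 36.4% of all Ensembl genes compared.

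MYL4, at 2.42 RPKM in heart and 0 in adult muscle, had 92.2 RPKM in the mixture of muscle RNA and 48.4 RPKM in the mixture of tissues, which the labels give as multiple breeds and time points.

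In the mixture of tissues, all 173 Ensembl genes and 80 of the 85 lncRNAs above every other organ had reads, against 98.2% of Ensembl genes and 68.9% of lncRNAs compared. TCONS_00494470, with 180 reads in heart, had none in either mixture. The labels do not say whether heart was part of the mixtures.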
